A study of Mus musculus with 24 samples.

Results

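Polyamine metabolism is represented here by 9 genes, Odc1, Amd1, Srm, Sms, Sat1, Smox, Paox, Azin1 and Oaz1. They were taken by symbol from the deposited table of 24537 genes, each had a single row, and all 9 passed the filter on low counts. The counts came from poly(A) RNA-seq of whole extensor digitorum longus (EDL) muscle, which is mainly fast-twitch, and soleus (SOL) muscle, which is mainly slow-twitch. The mice were 2 months old and carried a Dox-inducible OSKM cassette (Col1a1-tetO-4F, for Oct4, Sox2, Klf4 and c-Myc). They also carried a ROSA26 rtTA trans-activator and GFP behind a LoxP-STOP-LoxP block. In Acta1-Cre+/4Fhet mice (Cre+) the Acta1 promoter drives Cre in myofibers, which opens the rtTA and GFP genes there. In Acta1-Cre-/4Fhet mice (Cre-), the controls, these genes stay closed. Dox was in the drinking water of both genotypes (1 mg/ml), and muscles were taken at 2.5 days, at 5.5 days and at 8.5 days. Each combination of muscle, genotype and day has 2 libraries, 24 in all. The comparison of Cre+ with Cre- muscles asks what changes with OSKM in myofibers, and the comparison of EDL with SOL muscles asks how the muscles differ. Cre+ muscles also hold Cre, rtTA and GFP, which cannot be told apart from OSKM in this comparison.

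Polyamines (putrescine, spermidine and spermine) are small, positively charged molecules that bind nucleic acids and are needed for growth and translation. Ornithine decarboxylase (Odc1) makes putrescine from ornithine, S-adenosylmethionine decarboxylase (Amd1) supplies the aminopropyl groups, and spermidine synthase (Srm) and spermine synthase (Sms) add them in turn. Sat1 acetylates spermidine and spermine, Paox oxidizes the acetylated forms, and Smox oxidizes spermine directly. The antizyme Oaz1 binds the Odc1 protein and sends it to the proteasome, and the antizyme inhibitor Azin1 binds the antizyme. Odc1 is a textbook target of Myc, which binds E-box sequences, and Myc is among the 4 induced factors.

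Because Myc reads E-boxes, the 250 bases before the transcription start were searched in the RefSeq promoter table (GRCm38.p6) for CACGTG, which is the same on both strands, and for the variant CACGCG on either strand (CGCGTG on the other). The motifs were counted separately, and a hit that overlapped with another was kept. Of the 9 genes, 7 matched the table with 9 starts. Srm and Azin1 had no entry. Over all 32851 starts, 6.02% held CACGTG and 7.62% held CACGCG. Shown are Odc1 and Sms, whose windows held a motif, and Sat1 and Smox, which carried large changes in expression and whose windows held neither. Capitals mark the motif, and each sequence runs 5′ to 3′ on the strand of the gene, at chr12:17544623-17544872 (plus strand), chrX:157492288-157492537 (minus), chrX:155216450-155216699 (minus) and chr2:131491612-131491861 (plus).
Odc1: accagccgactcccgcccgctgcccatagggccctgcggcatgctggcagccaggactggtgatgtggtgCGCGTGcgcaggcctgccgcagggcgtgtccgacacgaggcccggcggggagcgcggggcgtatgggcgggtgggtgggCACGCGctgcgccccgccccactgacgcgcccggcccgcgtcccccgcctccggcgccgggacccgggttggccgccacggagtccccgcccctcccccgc
Sms: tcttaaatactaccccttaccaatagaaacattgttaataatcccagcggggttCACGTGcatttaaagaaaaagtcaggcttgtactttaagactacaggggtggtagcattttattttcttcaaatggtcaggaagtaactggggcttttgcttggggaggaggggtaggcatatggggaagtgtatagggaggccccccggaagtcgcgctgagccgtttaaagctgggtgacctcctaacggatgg
Sat1: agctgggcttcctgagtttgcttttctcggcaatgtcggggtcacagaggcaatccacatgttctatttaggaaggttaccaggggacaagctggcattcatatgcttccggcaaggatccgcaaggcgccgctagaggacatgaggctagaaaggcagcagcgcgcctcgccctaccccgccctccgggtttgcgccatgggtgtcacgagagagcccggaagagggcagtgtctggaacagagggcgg
Smox: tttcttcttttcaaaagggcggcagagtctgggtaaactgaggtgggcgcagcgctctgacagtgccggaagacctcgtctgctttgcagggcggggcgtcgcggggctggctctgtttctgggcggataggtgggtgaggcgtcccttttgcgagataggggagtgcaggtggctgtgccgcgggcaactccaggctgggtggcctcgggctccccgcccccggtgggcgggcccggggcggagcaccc
The Odc1 window held the variant at 180 and 101 bases before the start, and the Sms window held CACGTG at 196 bases before it. A second Sms start and the Oaz1 start each held the variant, at 140 and 212 bases before the start. Neither Sms start is that of the counted Sms row, whose 5′ end lies at chrX:157492046, so the Sms distances do not refer to that row. The windows of Amd1, Paox, Sat1 and Smox held neither motif. A match here is only a match of letters, and its absence says nothing of other positions.

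In the mm10 coordinates of the deposited table, which are those of GRCm38, Odc1 lies at chr12:17544873-17551502, Amd1 at chr10:40287458-40302188, Srm at chr4:148591513-148594619 and Sms at chrX:157443954-157492046. Sat1 lies at chrX:155213126-155216449, Smox at chr2:131491862-131525183, Paox at chr7:140125685-140134334, Azin1 at chr15:38487430-38519266 and Oaz1 at chr10:80826656-80829290. The counts cover the exons of these genes. Some members have near-identical copies, whose reads a count of uniquely aligned reads leaves out. Of the 50-base words in the GENCODE transcript of Amd1, 87.6% also occurred in a transcript of another gene, most of them in Amd2. The same share was 58.4% for Paox, 52.2% for Oaz1, 42.2% for Odc1, 22% for Sms, 6.62% for Sat1, 2.4% for Srm, and 0 for Smox and Azin1. With 100-base words it was 76.4% for Amd1, 50.7% for Paox, 41.8% for Oaz1, 19.6% for Odc1 and 19.1% for Sms. It was then 0.341% for Sat1 and 0 for Srm, Smox and Azin1. The transcripts of Sms, Sat1, Smox, Paox, Azin1 and Oaz1 did not match the counted RefSeq entry. That of Paox had 1024 bases, against 1728 counted exon bases. The levels of Amd1, Paox, Oaz1, Odc1 and Sms in FPKM (the count scaled to exon length and library total) are therefore uncertain against other genes, while a comparison of a gene with itself between samples uses the same exon positions throughout. The row named Amd2 lies at the Amd1 locus (chr10:40287465-40302186), with counts identical to those of Amd1 in 21 of 24 libraries and at most 2 counts apart in the others, whereas GENCODE places Amd2 at chr10:35708675-35711892. It was read as a repeat of Amd1 and not as a separate gene. The row named Oaz1-ps likewise lies inside the Oaz1 locus.

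Total counts ran from 36088781 to 54679082 per library. The labels of muscle held, since 6 fast fibre markers summed to between 67140 and 120000 CPM (counts scaled to the library total) in EDL libraries and between 25260 and 41070 in SOL libraries, and 6 slow fibre markers to between 172 and 1624 in EDL and between 32230 and 58270 in SOL. In each test of EDL against SOL at 2.5 and 8.5 days, 4 or 5 fast fibre markers were higher in EDL and 1 was lower. All 6 slow fibre markers were lower in EDL in each. Myc, whose row cannot separate the cassette from the mouse gene, lay between 2.40 and 3.34 FPKM in Cre- EDL muscles. In Cre+ EDL muscles it was at 25.4 and 99.4 FPKM at 2.5 days, 4.19 and 42.8 at 5.5 days, and 87.1 and 77.2 at 8.5 days. Pou5f1 (Oct4) followed the same libraries, with 17.5 and 70.5 FPKM at 2.5 days, 1.02 and 27.7 at 5.5 days, and 76.2 and 57.7 at 8.5 days, against 0.0896 or less in Cre- EDL muscles. In Cre+ SOL muscles Myc reached 8.17 and 14.0 FPKM at 2.5 days and 18.1 and 10.0003 at 8.5 days, but 1.88 and 1.95 at 5.5 days. Cre+ libraries of the 5.5 day group thus stood apart in their OSKM levels, 3 of 4 of them having low Myc, and these libraries are described separately. In Cre+ EDL muscles at 2.5 days, replicate 2 held 3.91 times the Myc of replicate 1. In the tests of Cre+ against Cre- EDL muscles, 4 induced factors were higher at 2.5 and at 8.5 days and 2 at 5.5 days. In SOL muscles only 2 of the 4 were higher at 2.5 and at 8.5 days, and 0 at 5.5 days. The paper reports like Klf4 levels in Cre+ and Cre- SOL muscles.

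In Cre- muscles the antizyme gene had the highest level of the members and Paox the lowest, and the order of the genes between them differed between the muscles. This order is that of uniquely aligned reads, and the places of Amd1, Paox, Oaz1, Odc1 and Sms in it are uncertain for the reason given above. Oaz1 lay between 176 and 208 FPKM in the 6 Cre- EDL libraries and between 196 and 239 in the 6 Cre- SOL libraries. In EDL muscles Smox was next (39.9 to 102 FPKM, median 47.1), followed by Sms (22.8 to 30.7), Odc1 (21.1 to 26.3), Amd1 (14.99 to 27.2) and Sat1 (14.5 to 22.3). Sms, Odc1, Amd1 and Sat1 each overlapped with the next in that order. Srm (6.32 to 11.4) and Azin1 (5.40 to 10.8) overlapped with each other, below Sat1, and Paox was the lowest (1.31 to 1.99). In SOL muscles Odc1 (20.4 to 26.4 FPKM) and Sat1 (15.4 to 18.8) came after Oaz1 without overlap. Srm (8.43 to 13.1), Sms (8.64 to 12.02), Azin1 (6.57 to 12.2), Smox (6.47 to 11.2) and Amd1 (5.19 to 9.97) overlapped in a run, and Paox (1.42 to 3.18) was again the lowest.

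**Figure D1:**
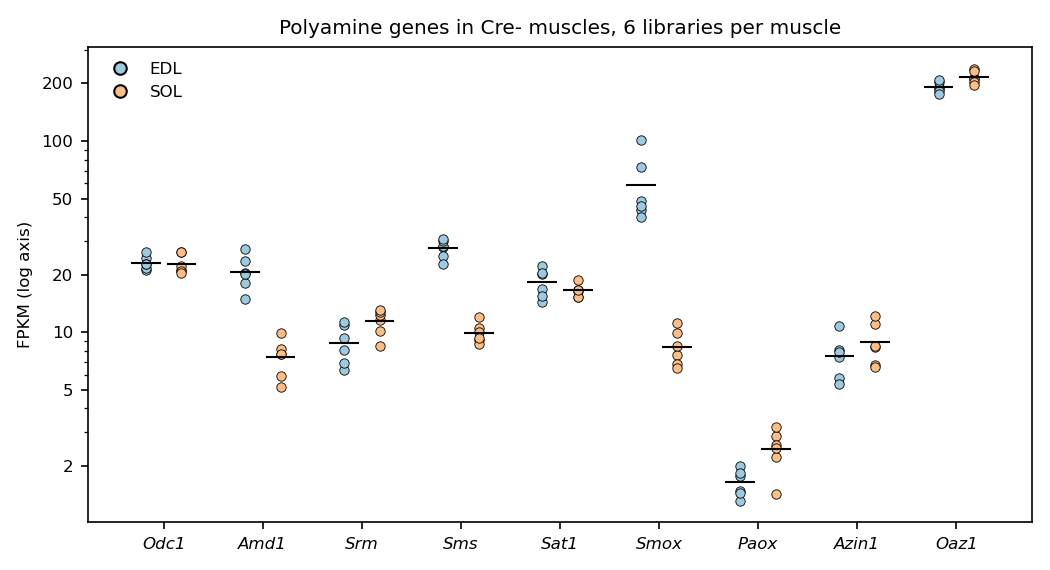
FPKM (log axis) of the 9 polyamine genes in Cre- muscles. Each point is a library (6 per muscle, all time points of Dox), and bars are means. The Amd1, Sms and Smox points of EDL muscles all lie above those of SOL muscles, while the Odc1 points share a range.

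Amd1, Sms and Smox set the fast and slow muscles apart. At 2.5 days, Smox lay at 72.9 and 102 FPKM in Cre- EDL muscles and at 7.64 and 9.89 in Cre- SOL muscles. At 8.5 days it lay at 39.9 and 45.5 in EDL and at 11.2 and 8.49 in SOL. No EDL library overlapped with a SOL library, and Smox was higher in EDL by 3.42 ± 0.24 on the log2 scale at 2.5 days (± SE, n = 2 per group, edgeR quasi-likelihood test, adjusted p = 2.44e-06) and by 2.20 ± 0.22 at 8.5 days (adjusted p = 4.2e-05). Amd1 was at 23.6 and 27.2 FPKM in Cre- EDL against 7.74 and 9.97 in Cre- SOL muscles at 2.5 days, and at 18.1 and 14.99 against 5.19 and 5.94 at 8.5 days. Amd1 was higher in EDL by 1.63 ± 0.20 and 1.66 ± 0.20 on the log2 scale at these times. Sms was at 27.9 and 25.2 FPKM against 10.5 and 12.02 at 2.5 days, and at 30.1 and 22.8 against 9.06 and 9.30 at 8.5 days. The EDL libraries of Amd1 and Sms were all above the SOL libraries, and Sms was higher in EDL by 1.34 ± 0.14 and 1.61 ± 0.14. A gene was called where its adjusted p was under 0.05 and it differed by more than 0.5 on the log2 scale. By that rule 3 of 9 genes were higher in Cre- EDL muscles and 0 lower at either time. Of all 15372 genes tested, 16% were called at 2.5 days (8.14% higher in EDL) and 18.2% at 8.5 days (8.65% higher). The other 6 genes did not pass, and among them the log2 differences of Srm were -0.16 and -0.30 and those of Sat1 were 0.26 and 0.35. The median log2 difference over all genes was 0.0238 and -0.0103.

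In Cre+ muscles 5 of 9 genes were higher in EDL than in SOL at 2.5 days, when 28.4% of all genes were called and 15.6% were higher. These were Sat1 (1.75 ± 0.28 on the log2 scale, adjusted p = 0.000507), Srm (1.26 ± 0.27, adjusted p = 0.00342), Sms (1.49 ± 0.14), Smox (1.95 ± 0.22) and Amd1 (0.80 ± 0.20, adjusted p = 0.0078). Replicate 2 of Cre+ EDL muscles carried much of the difference of Srm and Sat1, which without it was 0.62 (adjusted p = 0.03955) and 1.06 (adjusted p = 0.00161). Amd1 did not pass without that library (0.53, adjusted p = 0.0962) or without replicate 2 of Cre+ SOL muscles (0.71, adjusted p = 0.0699). At 8.5 days Amd1 (1.29 ± 0.20), Sms (1.29 ± 0.14) and Smox (1.61 ± 0.22) were higher, 3 of 9, against 18.2% of all genes called and 9.14% higher. Sat1 (0.72 ± 0.27, adjusted p = 0.0797) and Srm (0.55 ± 0.27, adjusted p = 0.171) did not pass at 8.5 days. Muscles with the same number behaved as paired, and with the mouse as a block Sat1 passed at 8.5 days (0.73, adjusted p = 0.015). Whole muscle holds other cells beside myofibers, so that fewer cells of a type and less RNA per cell cannot be told apart in any of these comparisons. Markers of other cells also differed between the muscles. Of 5 erythroid markers, 4 were called higher in Cre- and 5 in Cre+ EDL muscles at 2.5 days, with summed levels of 1004 and 495 CPM in Cre- EDL against 260.4 and 264 in Cre- SOL, and of 916 and 396 in Cre+ EDL against 198 and 135 in Cre+ SOL, while 0 were called at 8.5 days. Of 4 endothelial markers, 3 were called lower in Cre+ EDL muscles at each time and 0 in Cre- muscles. Of 7 liver markers, 6 were called lower in EDL at 8.5 days in Cre- mice (9.78 and 11.8 CPM against 28.1 and 158 in SOL). Of 5 satellite cell markers, 1 was called lower in EDL at 2.5 days and 2 at 8.5 days in either genotype, and at 2.5 days 2 of 4 fibroblast markers and 1 of 7 macrophage markers were called higher in Cre- EDL and 1 fibroblast marker in Cre+ EDL. The part of these cells in the differences of Amd1, Sms, Smox, Sat1 and Srm was not tested.

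**Figure D2:**
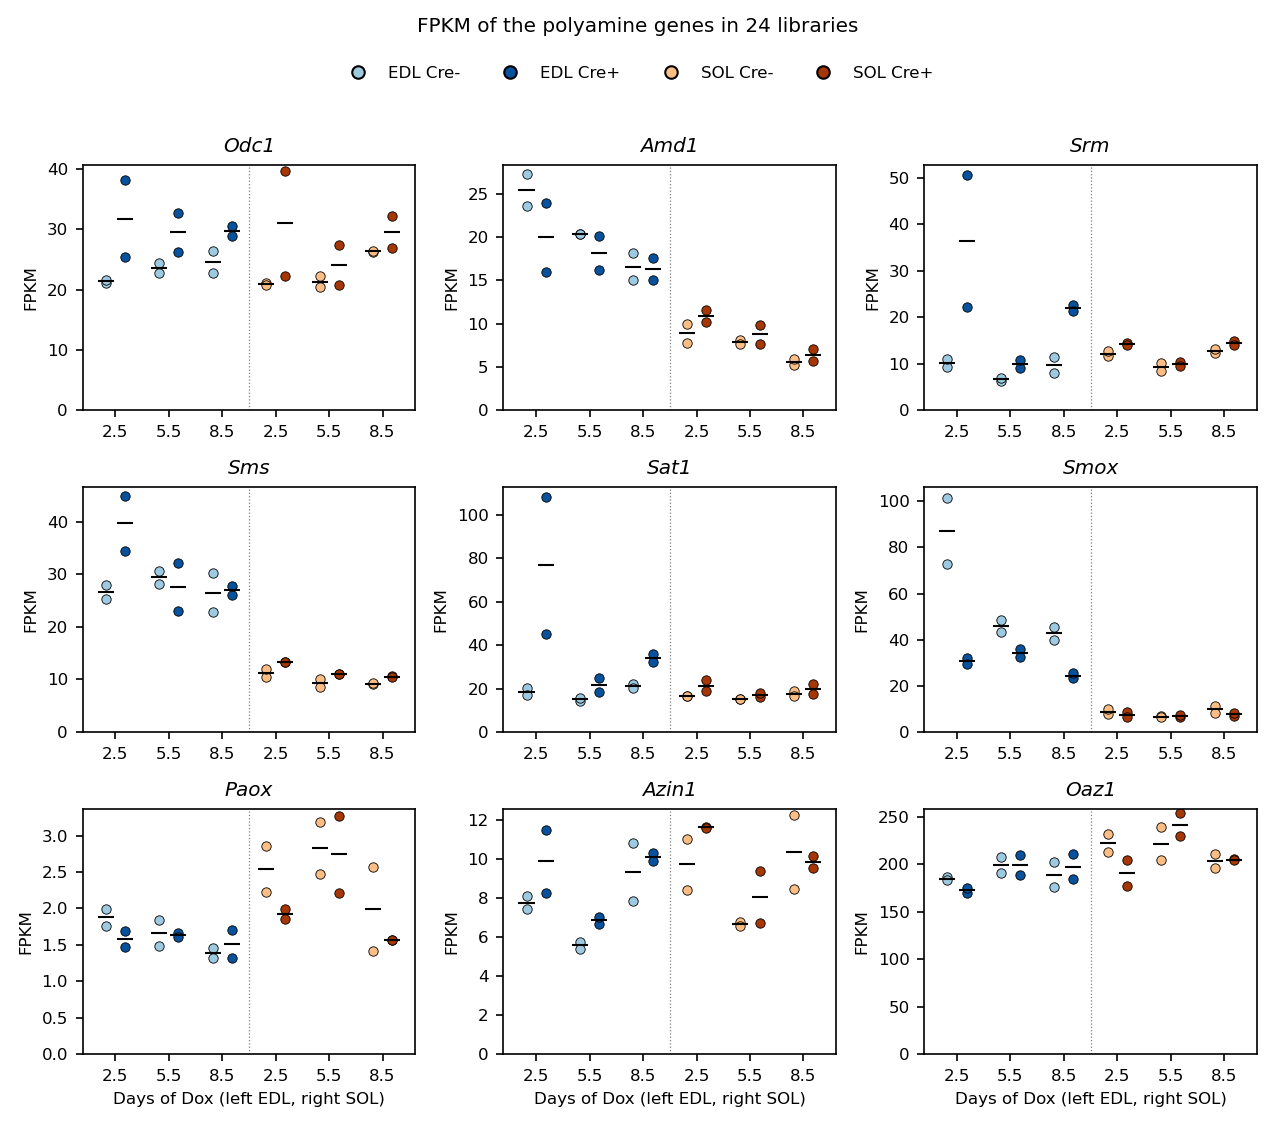
FPKM of the 9 polyamine genes in all 24 libraries, by muscle, days of Dox and genotype, with a separate vertical axis from 0 for each gene. Points are libraries (2 per group) and bars are their means. In EDL muscles the Cre+ points of Srm and Sat1 lie above and those of Smox below the Cre- points at each time.

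In EDL muscles at 2.5 days, OSKM induction was accompanied by more Srm and Sat1 and by less Smox and Amd1, 4 of 9 genes called, 2 higher and 2 lower. Of all genes tested, 24% were called, 13.8% higher and 10.2% lower. At 8.5 days Srm was still higher and Smox still lower, 2 of 9, against 14.1% of all genes called (7.63% higher and 6.5% lower). The median log2 fold change of the 9 genes was 0.01 at 2.5 days and -0.066 at 8.5 days, beside -0.0473 and -0.0173 for all genes. Scaling by library size alone would move the median of all genes to 0.282 at 2.5 days and 0.163 at 8.5 days, so changes are given relative to the TMM normalization, which brings it near 0.

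**Figure D3:**
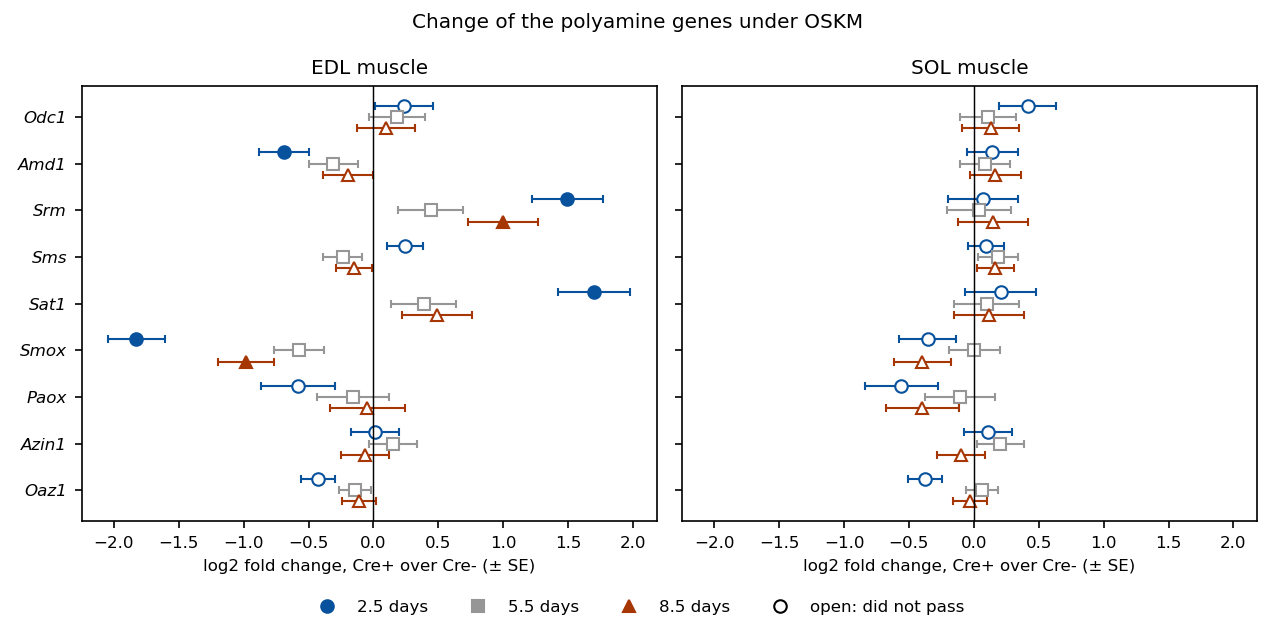
Log2 fold change of Cre+ over Cre- muscles (horizontal axis, bars ± SE) of the 9 genes in EDL (left) and SOL muscles (right), at 2.5, 5.5 and 8.5 days of Dox. Filled symbols passed both thresholds. They are Amd1, Srm, Sat1 and Smox in EDL at 2.5 days and Srm and Smox in EDL at 8.5 days, and every SOL symbol is open.

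Among the synthesis genes, Srm rose. It was at 9.34 and 10.9 FPKM in Cre- EDL muscles and at 22.2 and 50.6 in Cre+ EDL muscles at 2.5 days, and at 8.05 and 11.4 against 22.7 and 21.4 at 8.5 days. Both Cre+ libraries were above both Cre- libraries at each time, with replicate 2 of Cre+ far above the rest at 2.5 days. The log2 fold change was 1.49 ± 0.27 (adjusted p = 0.00152) at 2.5 days and 1.00 ± 0.27 (adjusted p = 0.0252) at 8.5 days. Without replicate 2 of Cre+ EDL muscles, the 2.5 day change of Srm was 0.84 (adjusted p = 0.01195). The 8.5 day change did not pass without replicate 1 of Cre- EDL muscles (0.76, adjusted p = 0.188) or without replicate 1 (1.01, adjusted p = 0.116) or replicate 2 (0.99, adjusted p = 0.0843) of Cre+ EDL muscles. The 8.5 day change minus the 2.5 day change of Srm was -0.50 on the log2 scale (adjusted p = 0.706), and this difference did not pass.

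Amd1, the decarboxylase that feeds both synthases, fell at 2.5 days. Its 23.6 and 27.2 FPKM in Cre- EDL muscles stood against 15.99 and 23.9 in Cre+ EDL muscles. These values overlap when scaled by the total count and no longer overlap after TMM normalization, with a log2 fold change of -0.69 ± 0.19 (adjusted p = 0.0188). The call rests on the scaling and on single libraries. Amd1 changed by -0.35 (adjusted p = 0.203) with library size alone, by -0.56 (adjusted p = 0.132) without replicate 2 of Cre- EDL muscles and by -0.46 (adjusted p = 0.126) without replicate 1 of Cre+ EDL muscles. At 8.5 days Amd1 was at 18.1 and 14.99 FPKM in Cre- and 14.995 and 17.6 in Cre+ EDL muscles, overlapping, with a log2 fold change of -0.20 ± 0.19 (adjusted p = 0.551).

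Odc1, the entry enzyme and a textbook Myc target, did not pass in either muscle at any time. In EDL muscles it was at 21.1 and 21.6 FPKM in Cre- and 25.4 and 38.1 in Cre+ mice at 2.5 days, and at 26.3 and 22.7 against 28.8 and 30.5 at 8.5 days. The Cre+ libraries were above the Cre- libraries by total count and overlapped with them after TMM normalization. The log2 fold changes were 0.23 ± 0.22 (adjusted p = 0.469) and 0.10 ± 0.22 (adjusted p = 0.819). Odc1 in SOL muscles was at 21.1 and 20.8 FPKM in Cre- against 39.7 and 22.3 in Cre+ mice at 2.5 days, so that a single library was high (0.41 ± 0.22, adjusted p = 0.456). Without replicate 1 of Cre+ SOL muscles the Odc1 value turned to -0.064.

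Sms, which makes spermine, was at 27.9 and 25.2 FPKM in Cre- and 34.5 and 44.8 in Cre+ EDL muscles at 2.5 days. The Cre+ libraries were above the Cre- libraries on both scales, but Sms did not pass (0.24 ± 0.14, adjusted p = 0.212), except with library size alone (0.58, adjusted p = 0.0102). At 8.5 days Sms was at 30.1 and 22.8 FPKM in Cre- and 26.1 and 27.7 in Cre+ EDL muscles, and the groups overlapped (-0.15 ± 0.14, adjusted p = 0.518).

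Among the catabolic genes, Sat1 and Smox moved in opposite directions at 2.5 days. Sat1, the acetyltransferase, was at 20.2 and 16.9 FPKM in Cre- EDL muscles and at 45.4 and 108 in Cre+ EDL muscles. Both Cre+ libraries were above the controls, and replicate 2 held 2.39 times the Sat1 of replicate 1. The log2 fold change was 1.70 ± 0.28 (adjusted p = 0.000772), and 1.01 (adjusted p = 0.00316) without replicate 2 of Cre+ EDL muscles. At 8.5 days Sat1 was at 22.3 and 20.5 FPKM in Cre- and 35.8 and 32.2 in Cre+ EDL muscles, without overlap, but did not pass (0.49 ± 0.27, adjusted p = 0.257).

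Smox, the spermine oxidase, fell at both times. It was at 72.9 and 102 FPKM in Cre- and 32.1 and 29.6 in Cre+ EDL muscles at 2.5 days, and at 39.9 and 45.5 against 23.3 and 25.6 at 8.5 days. Every Cre+ library was below every Cre- library, and Smox fell by 1.83 ± 0.22 on the log2 scale (adjusted p = 0.000113) at 2.5 days and by 0.98 ± 0.22 (adjusted p = 0.0088) at 8.5 days. The 8.5 day call of Smox was lost without replicate 1 of Cre+ EDL muscles (-0.87, adjusted p = 0.106). Paox, low throughout, was at 1.99 and 1.76 FPKM in Cre- and 1.48 and 1.68 in Cre+ EDL muscles at 2.5 days, without overlap, and did not pass (-0.58 ± 0.28, adjusted p = 0.151). At 8.5 days its groups overlapped (-0.047 ± 0.29, adjusted p = 0.94).

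Of the Odc1 regulators, neither was called. Oaz1 was at 186 and 184 FPKM in Cre- and 169.7 and 175 in Cre+ EDL muscles at 2.5 days, with the Cre+ libraries below on both scales. Its log2 fold change of -0.43 ± 0.13 had an adjusted p of 0.0273 but did not reach the fold threshold. The size of this change depended on the processing, with values from -0.43 to -0.10 over the alternative settings. At 8.5 days Oaz1 overlapped between genotypes (-0.11 ± 0.13, adjusted p = 0.63). Azin1 was at 7.41 and 8.08 FPKM in Cre- and 8.24 and 11.5 in Cre+ EDL muscles at 2.5 days, overlapping after TMM normalization (0.01 ± 0.19, adjusted p = 0.974), and its 8.5 day value was -0.066 ± 0.19 (adjusted p = 0.86).

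In SOL muscles 0 of 9 genes were called at either time by edgeR, and 0 by DESeq2, at a background of 0.384% of all genes at 2.5 days and 0.631% at 8.5 days. These shares are those of edgeR, and DESeq2 called 369 and 169 of all genes at these times. At an unadjusted p under 0.05 there was 1 gene at 2.5 days, Oaz1, and 0 at 8.5 days. At 2.5 days the log2 fold changes ran from -0.56 ± 0.28 for Paox to 0.41 for Odc1, with Smox at -0.36 ± 0.22, Oaz1 at -0.37 ± 0.13, Sat1 at 0.21 ± 0.27, Amd1 at 0.14 ± 0.20, Sms at 0.09 ± 0.14 and Srm at 0.07 ± 0.27. At 8.5 days they ran from -0.40 ± 0.22 for Smox to 0.17 ± 0.14 for Sms. Paox was at -0.40 ± 0.28, Amd1 at 0.16 ± 0.20, Srm at 0.15 ± 0.27, Odc1 at 0.13 ± 0.22 and Sat1 at 0.12 ± 0.27. Srm, which rose in EDL muscles, was at 11.6 and 12.7 FPKM in Cre- and 14.4 and 14.0 in Cre+ SOL muscles at 2.5 days, and at 12.3 and 13.1 against 14.8 and 14.1 at 8.5 days. Its Cre+ libraries lay a little above the controls by total count, but those of 2.5 days overlapped with the controls after TMM normalization. In the Cre- SOL libraries of 8.5 days, 7 liver transcripts summed to 28.1 and 158 CPM, against at most 11.8 in any other library.

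The change under OSKM differed between EDL and SOL muscles at 2.5 days for Sat1 and Smox. The change of Sat1 was larger in EDL by 1.49 ± 0.39 on the log2 scale (adjusted p = 0.0492), and for Smox the EDL change minus the SOL change was -1.47 ± 0.31 (adjusted p = 0.0208). Called were 2 of 9 genes, against 4.25% of all genes. For Srm the difference was 1.42 ± 0.38 (adjusted p = 0.0549), which passed with the muscles of a mouse as a block (1.33, adjusted p = 0.0478), and for Amd1 it was -0.83 ± 0.27 (adjusted p = 0.107). The Sat1 difference was 0.80 (adjusted p = 0.135) without replicate 2 of Cre+ EDL muscles, and of the 8 fits that each leave out a library it did not pass in 7, the exception being the fit without replicate 1 of Cre+ EDL muscles. The Smox difference lay between -1.71 and -1.19 over the same fits and did not pass in 4 of them, those without replicate 2 of Cre- or of Cre+ EDL muscles and those without replicate 1 of Cre- or of Cre+ SOL muscles. OSKM was itself induced to different levels in the muscles (Myc above), and its part in these differences was not tested. At 8.5 days 0 of 9 differences were called by edgeR or DESeq2 (1 at an unadjusted p under 0.05, Srm). Of all genes, edgeR called 0.592% and DESeq2 called 345 genes. The differences were 0.85 for Srm, 0.37 for Sat1, -0.58 for Smox and -0.36 for Amd1.

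The difference between the 8.5 day and 2.5 day changes was called for 0 of 9 genes in EDL muscles, with 2 at an unadjusted p under 0.05 (Sat1, -1.21 ± 0.38, and Smox, 0.85 ± 0.30), and for 0 in SOL muscles, with 0 at that p. DESeq2 called 0 in both. Of all genes, 0% were called by edgeR in either muscle, where 1469 and 403 genes had an unadjusted p under 0.05 and DESeq2 called 145 and 10. The Sat1 difference depended on single libraries of Cre+ EDL muscles at 2.5 days, and was -1.68 (adjusted p = 0.00496) without replicate 1, where it passed, and -0.52 (adjusted p = 0.9999) without replicate 2.

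The time points themselves were compared within each genotype and muscle after the values above had been seen. Smox was lower at 8.5 than at 2.5 days in Cre- EDL muscles, with a log2 difference of -1.09 ± 0.22 (adjusted p = 0.0413), the only gene called of the 9, against 0.748% of all genes. This call of Smox was lost without any single library of the 4, with values from -1.32 to -0.80 and adjusted p from 0.0753 to 0.307. Sat1 was lower at 8.5 than at 2.5 days in Cre+ EDL muscles, with a log2 difference of -1.06 ± 0.27 (adjusted p = 0.0396), again the only gene called of the 9, against 5.72% of all genes. The Sat1 difference rested on replicate 2 at 2.5 days (108 FPKM), without which it was -0.37 (adjusted p = 0.418), and it did not pass without replicate 1 (-1.09, adjusted p = 0.157) or replicate 2 (-1.04, adjusted p = 0.187) of 8.5 days either. At an unadjusted p under 0.05 there were 2 genes in Cre- EDL muscles (Amd1 and Smox) and 4 in Cre+ EDL muscles (Srm, Sms, Sat1 and Oaz1). Amd1 in Cre- EDL muscles was at -0.675 ± 0.19 by edgeR (adjusted p = 0.152) and at -0.67 by DESeq2 (adjusted p = 0.0588). In Cre- and Cre+ SOL muscles 0 of 9 were called by edgeR, against 3.63% and 1.45% of all genes, with 2 (Amd1 and Sms) and 1 (Amd1) at an unadjusted p under 0.05. DESeq2 called Amd1 in both SOL comparisons, at -0.73 (adjusted p = 0.017) and -0.68 (adjusted p = 0.0333), where edgeR gave -0.71 (adjusted p = 0.0704) and -0.68 (adjusted p = 0.0952). The days of Dox and the set of mice cannot be told apart. The Cre- EDL muscles against which the fall of Smox is measured were thus at different levels, 72.9 and 102 FPKM at 2.5 days, 43.5 and 48.7 at 5.5 days and 39.9 and 45.5 at 8.5 days, while Cre+ EDL muscles ranged from 23.3 to 35.8. For Amd1 the Cre- EDL levels also differed, at 23.6 and 27.2 FPKM at 2.5 days, 20.4 and 20.3 at 5.5 days and 18.1 and 14.99 at 8.5 days.

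At 5.5 days, a time point that the study left out of its comparisons, 0 of 9 genes were called in either muscle by edgeR or by DESeq2 on the same libraries. Smox alone had an unadjusted p under 0.05 in EDL muscles and no gene had in SOL muscles. Of all 15478 genes, edgeR called 0.304% in EDL muscles, where DESeq2 called 172 genes. In SOL muscles edgeR called 0% and DESeq2 called 0, and 597 genes had an unadjusted p under 0.05 by edgeR. Smox was at 43.5 and 48.7 FPKM in Cre- and 35.8 and 32.5 in Cre+ EDL muscles (-0.58 ± 0.19 on the log2 scale, adjusted p = 0.311), without overlap. Srm was at 6.32 and 6.88 against 9.10 and 10.7 FPKM (0.44 ± 0.25, adjusted p = 0.699), and Sat1 at 14.5 and 15.6 against 18.7 and 24.7 (0.39 ± 0.25, adjusted p = 0.755), again with the Cre+ libraries above. Odc1 (0.18 ± 0.22) and Amd1 (-0.31 ± 0.19) did not pass either. In SOL muscles the 9 log2 fold changes ran from -0.10 to 0.21, the latter for Azin1.

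**Figure D4:**
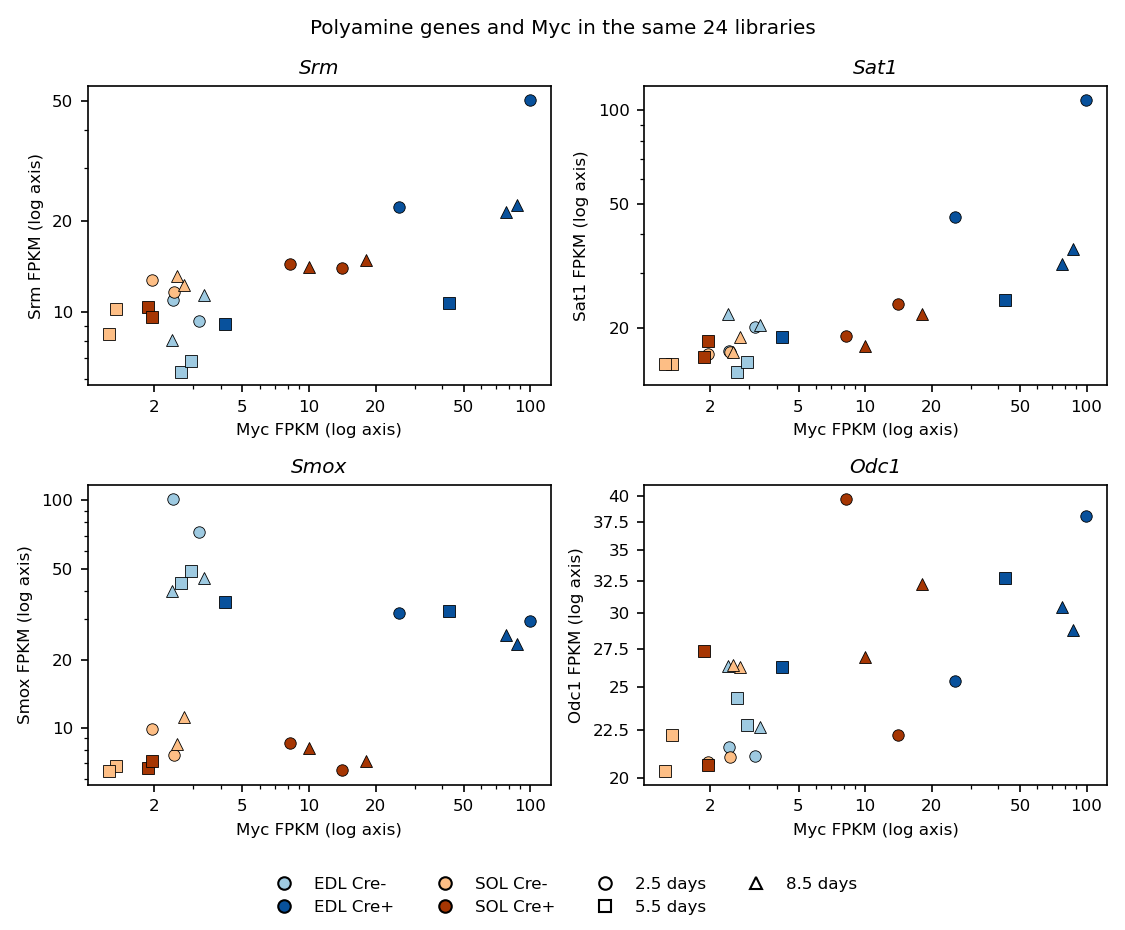
FPKM of Srm, Sat1, Smox and Odc1 (vertical, log axes) against the FPKM of Myc in the same library (horizontal, log axis), for all 24 libraries. Colours give muscle and genotype and shapes the days of Dox. The library with the most Myc (99.4 FPKM) also has the most Srm (50.6) and Sat1 (108), while Cre+ EDL libraries with 77.2 and 87.1 FPKM of Myc have 21.4 and 22.7 FPKM of Srm.

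Set beside Myc library by library, the members moved differently. From replicate 1 to replicate 2 of Cre+ EDL muscles at 2.5 days, Myc was 3.91 times as high, Sat1 2.39 times, Srm 2.28 times, Odc1 and Amd1 each 1.5 times and Sms 1.3 times, while Oaz1 was at 1.03 times and Smox at 0.923 times. The libraries did not fall in the same order for Myc and Srm. The 8.5 day Cre+ EDL libraries, with 87.1 and 77.2 FPKM of Myc, had 22.7 and 21.4 FPKM of Srm, close to the 2.5 day library with 25.4 FPKM of Myc (22.2). The 5.5 day Cre+ EDL library with 42.8 FPKM of Myc had 10.7 FPKM of Srm and 24.7 FPKM of Sat1. Smox differed from these genes, since in the 6 Cre+ EDL libraries it stayed within 23.3 to 35.8 FPKM over Myc levels from 4.19 to 99.4 FPKM. These are descriptions of single libraries, which differ in muscle, genotype and time, and no correlation was computed.

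The wider pathway was described through 5 lists with 33 genes, or 32 without the Amd2 row, of which 26 were tested. The lists were chosen with earlier results of these data known, so their shares beside those of all genes are descriptions only. In EDL muscles 8 rose and 2 fell at 2.5 days (38.5% of those tested, beside the 24% of all genes), and 5 rose and 1 fell at 8.5 days (23.1%, beside 14.1%). Their median log2 fold change was 0.23 and 0.159. In SOL muscles 1 rose at 2.5 days and 1 fell at 8.5 days (3.85% of those tested each, beside 0.384% and 0.631% of all genes). At 5.5 days 0 passed in either muscle by edgeR, beside 0.304% of all genes in EDL and 0% in SOL muscles.

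In the transport list, Slc7a1, a transporter of arginine and ornithine, was at 1.30 and 1.21 FPKM in Cre- and 6.94 and 26.7 in Cre+ EDL muscles at 2.5 days, and at 1.47 and 2.35 against 6.93 and 5.80 at 8.5 days. Its Cre+ libraries were all above the controls, with log2 fold changes of 3.38 ± 0.49 (adjusted p = 0.000378) and 1.55 ± 0.46 (adjusted p = 0.0391). Without replicate 2 of Cre+ EDL muscles the 2.5 day change of Slc7a1 was 2.18 (adjusted p = 0.00149), and without replicate 1 it was 4.03. Its 8.5 day call held only without replicate 2 of Cre- EDL muscles, and the other 3 fits that each leave out a library gave 1.24 to 1.62 (adjusted p from 0.0883 to 0.235). Slc18b1, a vesicular polyamine transporter, rose from 1.91 and 2.05 to 5.62 and 9.24 FPKM at 2.5 days (1.56 ± 0.19, adjusted p = 0.000143) and from 1.93 and 1.81 to 6.15 and 4.53 at 8.5 days (1.33 ± 0.19). Atp13a3, a polyamine-transporting ATPase, rose at 2.5 days (1.57 ± 0.27, adjusted p = 0.001), with 4.54 and 4.30 FPKM in Cre- and 13.1 and 20.0 in Cre+ EDL muscles. Of the 8 transport genes, 7 were tested, 3 rose at 2.5 days and 2 at 8.5 days, and 0 fell, beside 24% and 14.1% of all genes called.

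On the supply side, Gatm, which moves the amidino group of arginine to glycine and releases ornithine, rose in EDL muscles at both times (1.47 ± 0.20 and 1.64 ± 0.20) and in SOL muscles at 2.5 days (1.20 ± 0.21, adjusted p = 0.0311). The SOL call of Gatm was lost without any single library of the 4 (adjusted p from 0.0964 to 0.233), while its EDL calls held. It was at 3.66 and 3.75 FPKM in Cre- and 13.0 and 12.9 in Cre+ EDL muscles at 2.5 days. Aldh18a1, which starts proline and ornithine synthesis from glutamate, rose at 2.5 days (1.56 ± 0.35, adjusted p = 0.00564), from 2.33 and 3.23 to 6.98 and 13.9 FPKM. Aldh18a1 did not pass without replicate 1 of Cre- (1.32, adjusted p = 0.0631) or replicate 2 of Cre+ EDL muscles (1.04, adjusted p = 0.0845). Oat, which interconverts ornithine and glutamate semialdehyde, fell at both times (-1.04 ± 0.19 and -0.69 ± 0.19), from 142 and 115 to 78.6 and 77.9 FPKM at 2.5 days. The 8.5 day call of Oat was lost without replicate 2 of Cre- (-0.53, adjusted p = 0.114) or replicate 1 of Cre+ EDL muscles (-0.49, adjusted p = 0.241). The supply list thus held 2 genes that rose and 1 that fell of 4 tested at 2.5 days, when 24% of all genes were called.

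In the list of S-adenosylmethionine supply and methylthioadenosine salvage, which recovers the by-product of the Srm and Sms reactions, Mtap rose at 2.5 days (1.23 ± 0.34, adjusted p = 0.0184) and Enoph1 at both times (0.97 ± 0.24 and 0.93 ± 0.24). Mtap was at 4.16 and 5.01 FPKM in Cre- and 9.57 and 17.8 in Cre+ EDL muscles at 2.5 days. At 2.5 days Mtap and Enoph1 passed in 1 of the 4 fits that each leave out a library, that without replicate 1 of Cre+ EDL muscles, and without replicate 2 they were at 0.78 (adjusted p = 0.216) and 0.46 (adjusted p = 0.145). Enoph1 at 8.5 days likewise passed in 1 of 4, that without replicate 2 of Cre- EDL muscles, with adjusted p from 0.0801 to 0.124 in the others. The other 6 of 8 genes did not pass at 2.5 days, when 24% of all genes were called. Mat1a, the liver form of the S-adenosylmethionine synthetase, was called lower in Cre+ SOL muscles at 8.5 days, where it was at 0.135 and 0.768 FPKM in Cre- and at 0 counts in Cre+ libraries, in the controls with the liver transcripts given above. This call of Mat1a was lost without replicate 2 of Cre- or either replicate of Cre+ SOL muscles (adjusted p from 0.131 to 0.3145). Of the eIF5A list, Eif5a, the protein that carries the spermidine-derived hypusine, rose at 2.5 days (0.78 ± 0.14, adjusted p = 0.00164), from a mean of 267 ± 18.6 to 576 ± 87.3 FPKM (SD, n = 2). Dhps, which transfers the spermidine moiety to it, was called at 8.5 days (0.51 ± 0.12, adjusted p = 0.0117), but passed neither threshold without replicate 1 of Cre- or replicate 2 of Cre+ EDL muscles (0.43 in each fit, adjusted p = 0.0826 and 0.0807). Of the paralogs, Azin2, an antizyme inhibitor like Azin1, fell at 2.5 days (-1.18 ± 0.35, adjusted p = 0.0246), at 2.26 and 1.53 FPKM in Cre- and 1.17 and 0.915 in Cre+ EDL muscles. Azin2 did not pass without replicate 1 of Cre- (-0.90, adjusted p = 0.168) or replicate 2 of Cre+ EDL muscles (-0.98, adjusted p = 0.183). Other genes than the members were not checked for near-identical copies.

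**Figure D5:**
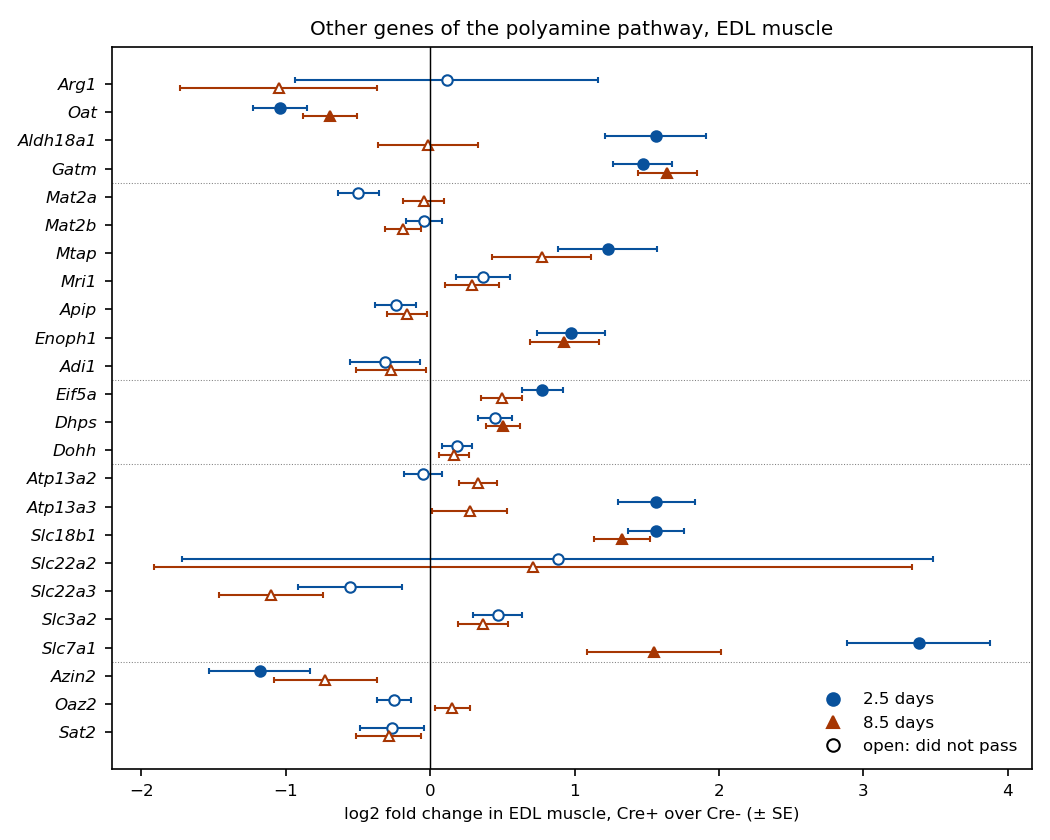
Log2 fold change of Cre+ over Cre- EDL muscles (bars ± SE) of the other pathway genes with a group mean of at least 1 FPKM in some group, grouped from top to bottom as supply of ornithine, methylthioadenosine salvage, hypusine, transport and paralogs. Filled symbols passed both thresholds. Slc7a1 at 2.5 days lies farthest to the right (3.38), and Oat and Azin2 are the filled symbols left of 0.

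Markers of other cells were compared beside these EDL results, as summed CPM of each list with no marker at 0 in any library group. These sums are scaled by the total count and not by TMM, so whether the groups overlap can depend on the scaling. At 2.5 days the 6 fast fibre markers were at 96440 and 67140 in Cre+ against 99110 and 108500 in Cre- EDL muscles, below the controls, and the 4 endothelial markers at 243 and 232 against 255 and 283, also below. In that comparison 2 of 6 fast fibre and 2 of 4 endothelial markers were called lower. The median log2 fold changes of these lists were -0.79 and -0.53. The 5 satellite cell markers were at 205 and 159.4 against 159.2 and 143, above the controls by total count. None of these 5 was called, and their median log2 fold change after TMM normalization was 0.019. The 7 macrophage and monocyte markers (115 and 86.9 against 99.1 and 71.3), 4 fibroblast markers (6121 and 3305 against 4352 and 4179) and 5 erythroid markers (916 and 396 against 1004 and 495) overlapped. At 8.5 days the macrophage list was at 229 and 167 in Cre+ against 152 and 148 in Cre- EDL muscles, and the fibroblast list at 7332 and 4993 against 3646 and 4514. Both were above by total count, but no marker of either list was called. Their median log2 fold changes after TMM normalization were 0.14 and 0.17. The fast fibre, endothelial, satellite cell and erythroid lists overlapped, and the slow fibre list overlapped at both times. The 7 liver markers were at 2.02 and 1.26 in Cre+ against 9.78 and 11.8 in Cre- EDL muscles at 8.5 days, with 4 of 7 called lower, and no other marker list but the induced factors had a call in that comparison. The part of these cells in the changes of Srm, Sat1, Smox and Amd1 was not tested.

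The genes whose pattern over the 24 libraries was closest to that of each member were found by the root mean square difference of log2 CPM, each gene centred on its own mean. For Smox they were Gpd1 (0.301) and Camk2a (0.403), and for Sms Lmbr1 (0.172) and Setd7 (0.189). For Srm they were Foxp4 (0.154) and Cdc42ep4 (0.155), for Sat1 Dcaf10 (0.183) and Rufy3 (0.193), and for Odc1 E2f4 (0.193) and A130010J15Rik (0.198). For Paox they were Izumo4 (0.217) and Cracr2b (0.224), and for Azin1 Galnt11 (0.141) and Mfsd14b (0.15). For Amd1 and Oaz1 the closest rows were those at the same loci, Amd2 (0.000399) and Oaz1-ps (0.00968), followed by Pfkfb4 (0.223) and Ndufa7 (0.0883). A small difference marks a like pattern, and genes that vary little are like many others for that reason, so that the values rank genes for a member and not members against each other.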

How the data were processed

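Poly(A) RNA of EDL and SOL muscles was sequenced in stranded single-end libraries. The authors used STAR 2.5.3a at default settings for alignment to mm10, and HOMER to count the reads with a unique alignment on RefSeq exons, according to the methods and the table's header. The deposited table gives these counts unnormalized, as integers, with each library in its own column. FastQC 0.11.2 is listed in the submitters' processing notes, and the read length is not given in the sources used here.

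From the counts, edgeR 4.0.16 in R 4.3.3 was run with TMM normalization, its low count filter (minimum count 10) and quasi-likelihood tests, on the 16 libraries of 2.5 and 8.5 days in 8 groups (15372 genes tested). The 5.5 day values came from a fit of all 24 libraries in 12 groups (15478 genes). The study itself compared groups in pairs with DESeq2, which was run as an alternative (version 1.42.0). p values were adjusted over all genes by Benjamini-Hochberg. Calls required an adjusted p under 0.05 and a log2 fold change beyond 0.5 in either direction. FPKM used the exon length of the table and the total count of the library, and TMM scaling would multiply the group means by 0.842 to 1.17. Fold changes come from the edgeR fit and not from FPKM. The SE of a log2 fold change is its absolute value divided by the square root of the F value of its test. It therefore rests on the spread over all groups of the fit and not on the 2 groups compared alone. Permuting 2 against 2 libraries exactly cannot give a p below 0.333, so no such test is shown for any gene. The edgeR and DESeq2 steps were also run on counts simulated with the spread that edgeR estimated here. Such a run can check the code, but not whether the model holds for these data.

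The members, the pathway lists and the markers were chosen with earlier results of these data known. The text names all 9 members. As a check of the labels it gives the levels of Myc and Pou5f1, and the 4 induced factors by count. Also named are up to 4 called genes with the largest change of each pathway list, and the 2 genes closest to each member (log2 CPM with a prior count of 2, among genes whose group means range over at least 0.5). Replicates are separate samples by their labels. Nothing in the labels ties them to animals beyond the number, so the p values measure the spread between these samples. EDL and SOL libraries of the same number deviated together from their group means (correlations over genes from 0.173 to 0.445 in 6 pairs of groups), and were treated as muscles of a mouse in the blocked fits. Cre+ and Cre- libraries of the same number did not (from -0.169 to 0.0578). Columns of other samples numbered 0. Promoter windows are from RefSeq and shared 50-base and 100-base words from GENCODE transcripts of GRCm38.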

Additional observations from a re-analysis of the deposited data

Results flagged for a closer look

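The changes of Sat1 and Smox in EDL muscles at 2.5 days differed from those in SOL muscles by a test of the difference itself (edgeR, an interaction of genotype and muscle). For Sat1, higher in 2 of 2 Cre+ EDL libraries, the difference was 1.49 on the log2 scale (adjusted p = 0.0492), and over the alternatives and left-out libraries its adjusted p ranged from 0.000534 to 0.149. For Smox, lower in 2 of 2 Cre+ EDL libraries, it was -1.47 (adjusted p = 0.0208), with a range of adjusted p from 0.000228 to 0.1. Groups of 2 libraries are too small to look for single libraries that stand apart by a test.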

How the results depend on the processing

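The alternatives were DESeq2 on the same libraries or on those of the comparison, DESeq2 size factors, library size alone, no filter or at least 10 counts in every library, edgeR on the libraries of the comparison, all 24 libraries, the 8 libraries of 5.5 days, replicate blocks, and leaving out each library (the lone library left in its group is assumed to vary like the other groups). The count of members called moved past 1.5 times in few of them. With edgeR on the libraries of the comparison, the EDL minus SOL difference at 2.5 days had 1 member, and EDL against SOL in Cre+ muscles at 8.5 days had 5, as with DESeq2 on those libraries. DESeq2 on the libraries of the comparison called 1 member in EDL muscles at 5.5 days, Smox (-0.55, adjusted p = 0.0151). Leaving out libraries gave 3 to 4 members called in EDL at 2.5 days, 0 to 2 in EDL at 8.5 days, 0 to 3 for the EDL minus SOL difference at 2.5 days, 0 to 1 for the 8.5 minus 2.5 day difference in EDL, 4 to 5 for EDL against SOL in Cre+ at 2.5 days, and the same counts as with all libraries in the others. Library size alone turned 4 values of EDL at 8.5 days, none of them called, to 0.0249 (Sms), 0.13 (Paox), 0.11 (Azin1) and 0.0631 (Oaz1).

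Leaving out a library turned the sign of values that were not called. In EDL at 2.5 days Odc1 ranged from -0.0355 to 0.46 and Azin1 from -0.20 to 0.19. In EDL at 8.5 days Sms ranged from -0.33 to 0.0475, Paox from -0.30 to 0.17, Azin1 from -0.27 to 0.17 and Oaz1 from -0.27 to 0.0300. In SOL at 2.5 days Odc1 ranged from -0.0637 to 0.77 and Amd1 from -0.00374 to 0.31, and in SOL at 8.5 days Amd1 from -0.0444 to 0.35, Sat1 from -0.0247 to 0.26 and Paox from -0.80 to 0.16. Azin1 in SOL at 5.5 days ranged from -0.0541 to 0.42, and the 8.5 minus 2.5 day difference of Srm in EDL from -0.95 to 0.15. The cause was not tested. Leaving out each library was extended to the pathway genes and to the comparison of 8.5 with 2.5 days after the values had been seen, and the calls it ended are given beside them.

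Cre+ and Cre- libraries share only a number, and the replicate block within muscle and time point kept 4 members called in EDL at 2.5 days, 2 in EDL at 8.5 days and 0 in SOL. With the muscles of a mouse as the replicate block, 3 members were called for the EDL minus SOL difference at 2.5 days and 4 for EDL against SOL in Cre+ at 8.5 days, and no other call changed.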
